A study of Homo sapiens with 8 samples.

Results

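The solute carrier transporters of Huh7 cells were followed across the 8 RNA-seq libraries of a study on UPF1, the RNA helicase at the centre of nonsense-mediated mRNA decay (NMD). Members were selected on their symbol, built as SLC, a family number, the letter A and a member number or beginning with SLCO and a number, and on a mean level over the 8 libraries of at least 1 FPKM. FPKM is a count of fragments divided by the length of the transcript and the size of the library. Of 17076 genes listed, 246 symbols fitted this pattern, and 186 of them reached the level and 56 did not. The remaining 4, SLC7A11, SLC3A2, SLC40A1 and SLC11A2, were left out by name. The pattern takes in the SLC35A genes of the large SLC35 family but not those lettered B to F, so these are absent here. The mean level alone decided membership, which makes the levels below a description.

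Huh7 is a widely used human cell line derived from a hepatocellular carcinoma. Each of 4 groups had 2 libraries. The siControl cells received a scrambled siRNA and the siUPF1 cells an siRNA against UPF1. The MYC cells received a control MYC vector, and the MYC-UPF1 cells a vector for overexpression of MYC-UPF1. MYC in these names is the myc tag of the constructs, not the product of the MYC gene. All cells were transfected with the same lipid reagent, and the sources do not say that the libraries of a group came from separate cultures. P-values then measure only the spread between these libraries, which may be technical. Which UPF1 siRNA was used for the sequenced cells is not given in the sources used here.

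Solute carriers move small molecules and ions across the plasma membrane and the membranes of organelles. Most work by exchange, by co-transport with sodium or protons, or as uniporters that follow a gradient. In hepatocytes they take up amino acids, fatty acids, bile acids and drugs, release glucose, and pass metabolites in and out of mitochondria. UPF1 scans mRNAs and, when a ribosome stops early, triggers their degradation.

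UPF1 was measured at 44.5 and 47.4 FPKM in the siControl libraries and at 20.7 and 21.9 FPKM in the siUPF1 libraries, a log2 difference of -1.07 ± 0.09 (SE). It stood at 45.1 and 57.4 FPKM in MYC and at 2835 and 2484 FPKM in MYC-UPF1, which fits both labels. Hepatocyte markers were abundant in every library. ALB lay between 6550 and 8371 FPKM and AFP between 11093 and 12505 FPKM, and all 9 hepatocyte markers were listed. Of 12 markers of other cell types, 6 were listed. The endothelial PECAM1, the fibroblast COL3A1 and the biliary KRT19 stayed below 1 FPKM, and CD68, of macrophages, was at 2.95 to 3.84 FPKM. The leukocyte marker PTPRC was not among the genes listed. LYZ, another myeloid marker, was at 160.3 to 227 FPKM and SOX9 at 18.2 to 28.8 FPKM. Read depth per library cannot be given, since FPKM does not keep the number of reads.

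The member singled out for this description was SLC6A19, a sodium-dependent transporter of neutral amino acids best known from the brush border of intestine and kidney, on chromosome 5 from 1201710 to 1225226, plus strand, of GRCh37 (hg19). Its level was near the lower limit of the set. The siControl libraries held 1.22 and 1.06 FPKM, and the siUPF1 libraries 1.65 and 1.84 FPKM. The MYC libraries held 1.27 and 1.497 FPKM, and the MYC-UPF1 libraries 1.10 and 0.980 FPKM. Both siUPF1 libraries therefore lay above all 6 others, and MYC-UPF1 replicate 2 was the lowest. The log2 difference was 0.36 ± 0.10 (SE) after depletion and -0.22 ± 0.11 (SE) after overexpression. Since SLC6A19 was chosen with these directions known, they are given without a test.

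Canonical E-box motifs were looked for in the promoter windows of the members, as a feature that the rule did not use. The letters searched were CACGTG, which read the same on both strands, in the window from 250 bases before to 50 bases after each RefSeq start site (GRCh38.p14). The motif was in 30 of 150 members with a window (20%) and in 8.77% of 27305 genes of all kinds. By window, these were 31 of 222 member windows (14%) against 7.26% of all windows. The 27305 genes were not limited to those listed or expressed in these libraries, while members were. Members also had a higher median GC content than all genes listed, so the shares compare unlike sets. Enrichment was not tested, and members without a window were left out. Among SLC6A19 and the members with the largest differences in each comparison, 5 carried it. The 30 bases around it are shown for these 5, 5′ to 3′ on the strand of the gene, with the motif in capitals. Other members named below were not included here, whether or not they carried it.
SLC7A5, chr16:87869620-87869649, minus strand: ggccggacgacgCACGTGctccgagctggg
SLC16A9, chr10:59710109-59710138, minus strand: gcttggccagggCACGTGgtgggcggcggg
SLC25A33, chr1:9539427-9539456, plus strand: tccggcccccgcCACGTGacggccgcgcgc
SLC25A46, chr5:110738948-110738977, plus strand: agaggctataatCACGTGctccgaagactt
SLC41A2, chr12:104958703-104958732, minus strand: tgggccgaaagaCACGTGgttcggttttaa
These windows belong to genes that moved in different directions: SLC7A5 rose and SLC16A9 and SLC25A33 fell after UPF1 depletion, and SLC25A46 and SLC41A2 were lower in MYC than in siControl. A match describes the letters only. Transcripts of the MYC gene, as opposed to the tag, were at 15.2 and 17.8 FPKM in the MYC libraries and at 16.7 and 17.7 FPKM in the siControl libraries. They were at 13.9 and 11.7 FPKM in the siUPF1 libraries, a log2 difference of -0.40 ± 0.11 (SE) after depletion.

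The levels of the 186 members covered more than 2 orders of magnitude. Of these, 88 had a mean of at least 10 FPKM and 5 of at least 100 FPKM. The most abundant was SLC25A5, the mitochondrial ADP/ATP carrier, at 189.99 to 229.9 FPKM over the 8 libraries. It was followed by SLC29A2, an equilibrative nucleoside transporter, at 101.9 to 143.4 FPKM, and by SLC39A14, an importer of zinc, iron and manganese, at 88.4 to 129.3 FPKM. Next came SLC25A39, a mitochondrial carrier required for glutathione import, with a mean of 102 FPKM. SLC7A5, the exchanger of large neutral amino acids (LAT1), had a mean of 100.3 FPKM. SLC43A1 (96.3 FPKM), SLC4A2 (91.1 FPKM), SLC25A1 (89.5 FPKM), SLC1A5 (80.9 FPKM) and SLC39A7 (79.6 FPKM) completed the 10 highest means. These carry large neutral amino acids, anions, citrate, glutamine and zinc, in that order. The ranges of SLC29A2, SLC39A14, SLC25A39 and SLC7A5 over the libraries overlapped, so their order is not resolved. SLC25A5 and SLC7A5 have near-identical processed copies elsewhere in the genome, and how reads were shared with these is not known.

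By class, the mitochondrial carriers were the most numerous with 38 members, followed by 29 amino acid and peptide transporters, 23 inorganic ion transporters and 22 transporters of zinc, copper, magnesium and heme. The highest class median was that of the 12 vitamin and nucleoside transporters, at 18.5 FPKM. The lowest was that of the 7 neurotransmitter, creatine and osmolyte transporters, at 2.57 FPKM, although the taurine transporter SLC6A6 in that class reached 44.4 FPKM. The lactate and pyruvate transporter SLC16A1 led its class at 71.8 FPKM. The intracellular hexose transporter SLC2A8 led the sugar transporters at 39.6 FPKM, the hepatic organic anion transporter SLC22A9 led the organic ion and drug transporters at 23.6 FPKM, and SLC35A2, the Golgi carrier of UDP-galactose, led the nucleotide sugar transporters at 32.4 FPKM. SLC27A4, a fatty acid transport protein, led its class at 19.2 FPKM. Just inside the limit of membership stood SLC9A3 at 1.02 FPKM, SLC6A16 at 1.06 FPKM and SLC17A2 at 1.13 FPKM. Just outside stood SLC17A1 at 0.992 FPKM, SLC9A7 at 0.985 FPKM and SLC4A4 at 0.914 FPKM.

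**Figure D1:**
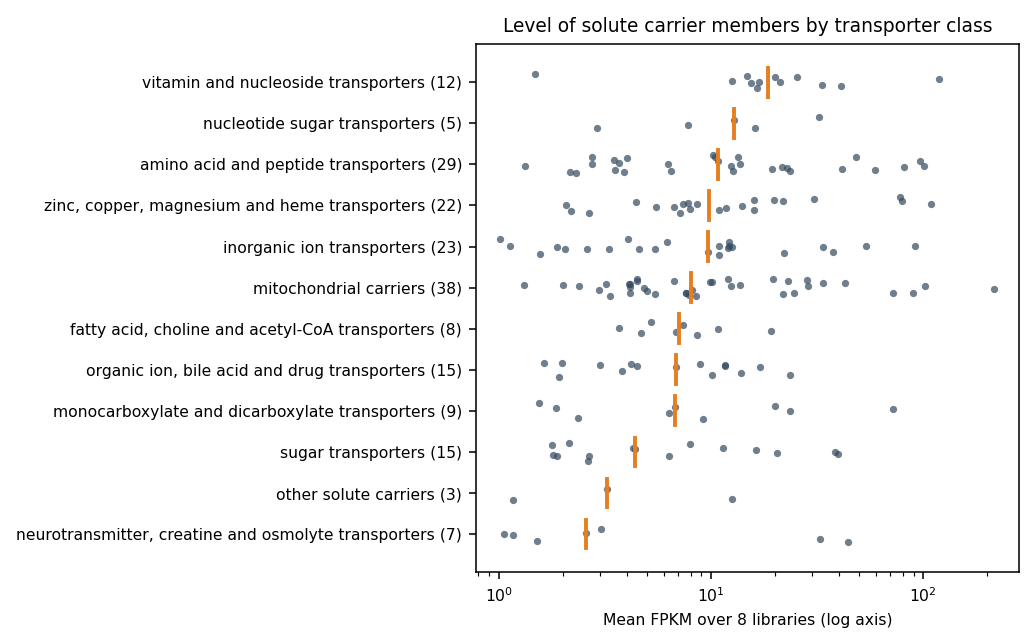
Mean FPKM over 8 libraries (x, log axis) of each solute carrier member (points), by transporter class with the number of members (y); the orange bar is the class median. The vitamin and nucleoside transporters have the highest median, 18.5 FPKM, and SLC25A5 is the point farthest to the right.

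Within a group the members repeated closely. The median absolute difference between replicates, on the log2(FPKM + 1) scale, was 0.0916 in siControl, 0.136 in siUPF1, 0.135 in MYC and 0.106 in MYC-UPF1. Over all 8 libraries the highest value of a member was 1.48-fold its lowest in the median, and 22 members varied by more than 2-fold. The widest range was that of SLC9A3, an exchanger of sodium and protons, at 4.34-fold. Its level was 0.320 FPKM in siUPF1 replicate 2 and 0.348 FPKM in MYC replicate 2, against 1.01 to 1.39 FPKM in the 6 other libraries. These low values were thus confined to 1 library of each of 2 groups. Together the members held 0.685% of all FPKM in siControl replicate 1, the lowest share, and 0.821% in siUPF1 replicate 2, the highest.

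The siControl libraries stood apart for more members than those of any other group. In 43 members (23.1%) both siControl libraries were below all 6 others, against 14.3% of 13412 genes tested over the 8 libraries. In 13 members (6.99%) they were above all others, against 12.7% of these genes. The siUPF1 libraries were the highest of all in 25 members (13.4%, against 17.2% of these genes) and the lowest in 16 (8.6%, against 3.39%). The MYC libraries were the highest in 17 (9.14%, against 2.17%). This order matters for the comparisons that follow, since siControl is the control for depletion.

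UPF1 depletion was compared with the scrambled siRNA to ask which transcripts change when UPF1 is scarce. At an unadjusted limma p of 0.05, 54 of 186 members (29%) passed, against 21.5% of 13535 genes tested. Of these, 41 rose (22%, against 16% of all genes) and 13 fell (6.99%, against 5.51%). None passed a Benjamini-Hochberg adjusted p of 0.05 in limma, a threshold that 0.0369% of all genes passed, and the lowest adjusted p of a member was 0.0584. This count depended on the fit, with 12 members (368 of all genes) past the adjusted threshold when all 8 libraries were fitted together and 71 (4546 of all genes) without siUPF1 replicate 1. The unadjusted count was 26 members (10.7% of all genes) without siControl replicate 1 and 92 (43.7%) without siUPF1 replicate 1. At an adjusted p of 0.1, 15 members (8.06%) passed, against 3.75%. The median log2 difference of the members was 0.07, close to the 0.06 of all genes tested. All log2 differences here are on the log2(FPKM + 1) scale, which understates the change of low members.

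The largest rise was that of SLC6A12, the betaine and GABA transporter BGT1, which supplies cells with an osmolyte, on chromosome 12 from 299243 to 323736. It was at 1.60 and 1.68 FPKM in siControl and at 3.11 and 3.71 FPKM in siUPF1. The log2 difference was 0.74 ± 0.11 (SE), with a limma adjusted p of 0.0584. The MYC libraries, at 2.84 and 2.56 FPKM, and the MYC-UPF1 libraries, at 2.69 and 2.39 FPKM, also lay above siControl but below siUPF1, so all 4 groups were ordered without overlap between siControl, the vector groups and siUPF1.

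SLC33A1, the acetyl-CoA transporter of the endoplasmic reticulum, rose from 5.27 and 5.54 FPKM to 9.05 and 8.74 FPKM, by 0.63 ± 0.09 (SE) and with the same adjusted p of 0.0584. SLC33A1 lies on chromosome 3 from 155538813 to 155572245. It was at 7.91 and 6.72 FPKM in MYC and at 7.27 and 8.29 FPKM in MYC-UPF1, below siUPF1 and above siControl in every library. SLC7A5 rose from 69.0 and 76.1 FPKM to 109 and 116 FPKM, by 0.63 ± 0.10 (SE). The levels of SLC7A5 in MYC, 104.7 and 121.5 FPKM, overlapped those of siUPF1.

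SLC6A14, a broad transporter of neutral and cationic amino acids on the X chromosome, rose from 1.73 and 2.11 FPKM to 4.02 and 3.25 FPKM, by 0.67 ± 0.12 (SE). The 4 vector libraries of SLC6A14 held 3.78 to 4.78 FPKM, so siControl was low against all 6 other libraries. The same order was seen for SLC44A2, a choline transporter, at 2.65 and 3.19 FPKM in siControl and 4.69 to 6.07 FPKM elsewhere. SLC16A3, the lactate exporter MCT4, rose from 11.7 and 12.2 FPKM to 16.9 and 19.3 FPKM and was higher still in the vector libraries, at 23.9 to 26.8 FPKM.

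The other large rises were those of SLC22A31 (0.62 ± 0.16 SE), an orphan of the organic ion family, and of SLC39A7 (0.58 ± 0.13 SE), which releases zinc from the endoplasmic reticulum. They were followed by SLC66A1 (0.54 ± 0.12 SE), which exports cationic amino acids from lysosomes, and SLC46A1 (0.52 ± 0.10 SE), the proton-coupled folate transporter. For SLC66A1, the siUPF1 libraries at 12.2 and 14.7 FPKM were above all others, and siControl at 9.37 and 8.47 FPKM overlapped the vector libraries at 8.12 to 10.8 FPKM. For SLC39A7, siControl at 56.1 and 63.7 FPKM was below all others, and siUPF1 at 81.1 and 100.1 FPKM overlapped MYC at 79.5 and 87.9 FPKM. Of the 41 members that rose, siControl was below all 6 other libraries in 27 (65.9%, against 49% of the 2162 genes of all kinds that rose). The siUPF1 libraries were above all others in 16 (39%, against 48.9%).

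The largest fall was that of SLC27A2, a very long-chain acyl-CoA synthetase and fatty acid transport protein of liver, on chromosome 15 from 50474393 to 50528582. It fell from 6.09 and 7.21 FPKM to 4.29 and 3.35 FPKM, by 0.67 on the log2 scale (SE 0.13, limma adjusted p = 0.0817). The vector libraries of SLC27A2 held 4.98 to 5.63 FPKM, between the siRNA groups. SLC38A4, a sodium-coupled transporter of neutral and cationic amino acids of liver, fell from 4.88 and 5.03 FPKM to 3.28 and 2.51 FPKM, by 0.62 on the log2 scale (SE 0.12, limma adjusted p = 0.0808). Its vector libraries, at 3.58 to 4.90 FPKM, were all above siUPF1. SLC19A2, a thiamine transporter, fell from 16.6 and 18.1 FPKM to 13.6 and 10.5 FPKM, and its vector libraries held 14.9 to 17.5 FPKM. In these 3 members the siUPF1 libraries were the lowest of all, as they were in 8 of the 13 that fell (61.5%, against 25.5% of the 746 genes of all kinds that fell).

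The 10 largest falls were completed by 7 members with log2 differences between -0.42 and -0.33. SLC16A7 (-0.42 ± 0.14 SE) and SLC16A9 (-0.36 ± 0.10 SE) belong to the monocarboxylate transporter family. SLC25A32 (-0.41 ± 0.11 SE), linked to folate and flavin transport, and SLC25A33 (-0.33 ± 0.11 SE), a pyrimidine nucleotide carrier, are mitochondrial. SLC38A11 (-0.37 ± 0.10 SE) belongs to the sodium-coupled amino acid family, SLC30A1 (-0.37 ± 0.13 SE) exports zinc from the cell, and SLC7A2 (-0.33 ± 0.10 SE) imports arginine and lysine. SLC7A2 was unlike the others, since its vector libraries at 22.7 to 30.2 FPKM were above both siRNA groups, with siControl at 21.3 and 22.02 FPKM and siUPF1 at 18.2 and 15.9 FPKM. SLC25A32 went the other way, with the MYC libraries at 5.37 and 5.43 FPKM below both siUPF1 libraries at 7.205 and 5.90 FPKM. Some of these falls rested on single libraries. Without siUPF1 replicate 2, SLC16A7 was at -0.22, SLC19A2 at -0.33 and SLC30A1, which no longer passed, at -0.21, and the rise of SLC22A31 was 0.37. SLC16A7, SLC25A32, SLC25A33, SLC30A1 and SLC7A2 did not pass without siControl replicate 2, nor did SLC38A11 and SLC7A2 without siControl replicate 1. In bulk libraries, fewer cells with a transcript and less of it per cell cannot be told apart.

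**Figure D2:**
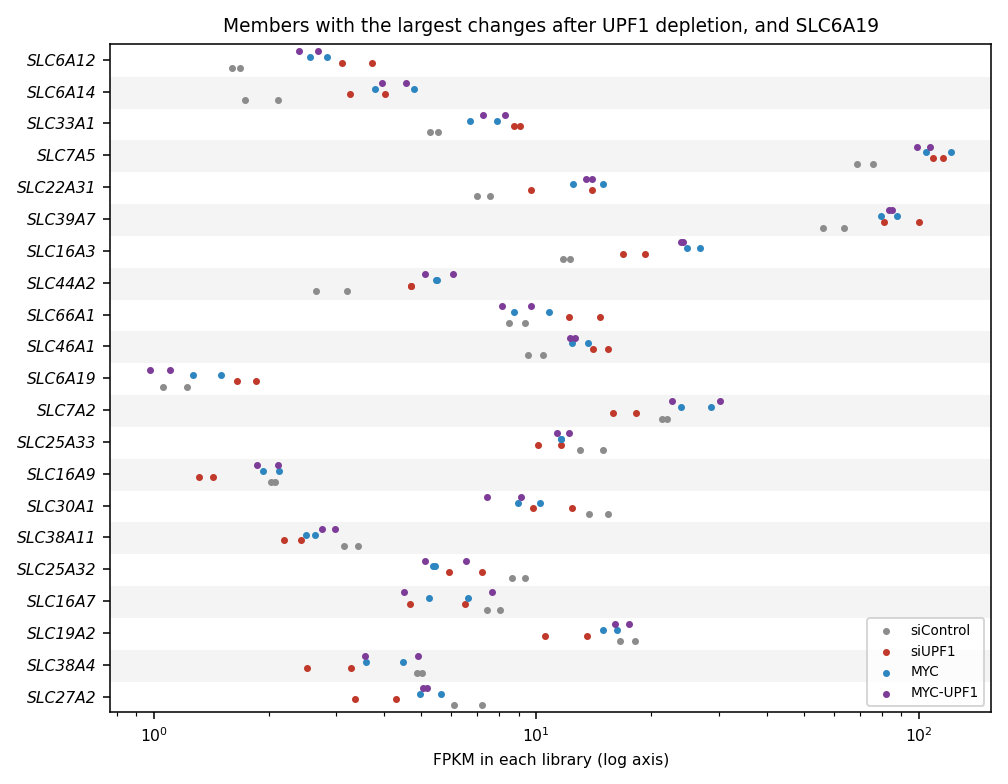
FPKM in each of the 8 libraries (x, log axis; 2 points per group, coloured by group) for the 10 largest rises and 10 largest falls after UPF1 depletion and for SLC6A19 (y). Red siUPF1 points lie to the right of grey siControl points in the upper 11 rows and to the left in the lower 10; in several upper rows, such as SLC6A14 and SLC44A2, the blue and purple vector points lie with or beyond the red.

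By class, amino acid and peptide transporters counted 10 rises and 3 falls among 29. The 10 that rose included SLC7A5, SLC38A3, SLC1A4 and the lysosomal SLC36A1 and SLC38A7. Transporters of zinc, copper, magnesium and heme counted 5 rises and 1 fall among 22. Of these rises, 4 were SLC39 zinc importers, SLC39A7, SLC39A1, SLC39A5 and SLC39A11, and the fall was the zinc exporter SLC30A1. In each of these genes siControl stood apart from all other libraries, below them for the SLC39 genes and above them for SLC30A1. All of them also passed in the same directions when MYC was compared with siControl. Inorganic ion transporters counted 4 rises and 1 fall among 23, with the potassium chloride cotransporter SLC12A4 at 9.002 and 9.29 FPKM in siControl and 12.4 and 14.5 FPKM in siUPF1. Sugar transporters counted 4 rises and 0 falls among 15, among them SLC37A4, the glucose 6-phosphate translocase of gluconeogenesis, at 12.6 and 13.5 FPKM in siControl and 18.4 FPKM in both siUPF1 libraries. For SLC12A4 and SLC37A4 too, siControl was below all other libraries. Their vector libraries held 11.9 to 14.8 FPKM and 15.2 to 18.4 FPKM.

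Mitochondrial carriers counted 4 rises and 3 falls among 38, with a median log2 difference of 0.02. The rises included SLC25A20, the carnitine carrier, and SLC25A6, an ADP/ATP carrier. Vitamin and nucleoside transporters counted 2 rises and 2 falls among 12. Neurotransmitter, creatine and osmolyte transporters counted 3 rises and 0 falls among 7. None of the 5 nucleotide sugar transporters passed in either direction, and their median was -0.10. By family name, a grouping chosen after the values were seen, 5 of 9 SLC6 members rose and 0 fell, and all 9 had a difference above 0. With the GC and length trend removed these were 3 rises, 0 falls and 7 above 0. The 5, like the 10 amino acid transporters that rose, include SLC6A19, which was chosen for its direction. The 5 also include SLC6A13 and SLC6A16, with means of 1.16 and 1.06 FPKM, near the membership limit of 1 FPKM. Their siUPF1 libraries, at 1.43 and 1.93 FPKM and at 1.34 and 1.17 FPKM, helped them to reach it. These class counts have the background of 16% and 5.51% given above and were not tested as sets.

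**Figure D3:**
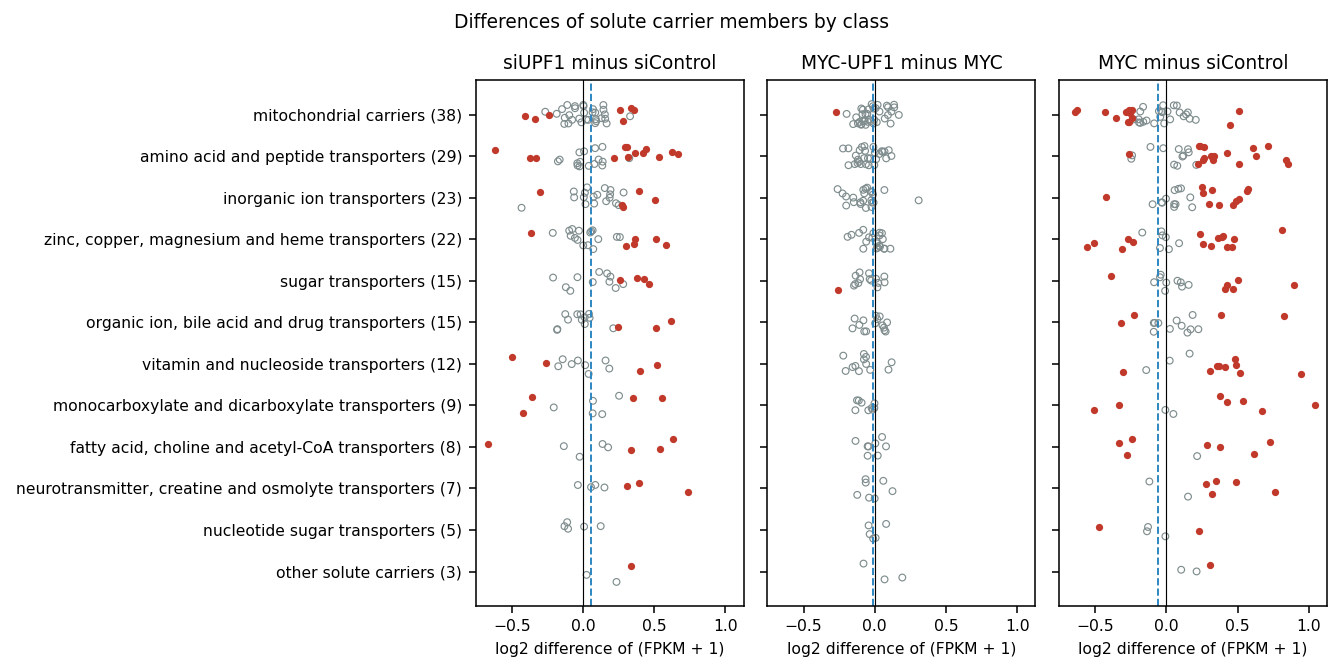
Difference on the log2(FPKM + 1) scale (x) of each member (points) by transporter class with the number of members (y), for siUPF1 minus siControl, MYC-UPF1 minus MYC and MYC minus siControl; filled red points passed an unadjusted limma p of 0.05 and the dashed line is the median of all genes tested. Members passed in 54, 2 and 97 cases in the panels from left to right.

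The rises and falls followed the base composition of the transcripts. Across the 186 members, the log2 difference after depletion rose with transcript GC content (Spearman's rho 0.552), as it did over 12833 genes of all kinds (0.542). Genes are not independent replicates, so these are descriptions. With all genes divided into 4 equal bins of GC content, 24 of the 64 members in the highest bin, from 56.3%, rose and 0 fell, where 35.5% of all genes in that bin rose and 0.935% fell. In the lowest bin, up to 41.8%, 2 of 48 rose and 9 fell, where 3.335% and 11.5% of all genes did. Members had a median GC content of 51.2% against 48.1% for all genes. Replicates of 1 group also differed along GC content. The rank correlation of replicate 1 minus replicate 2 with GC was -0.725 in siUPF1, -0.776 in MYC and 0.767 in MYC-UPF1, but -0.07 in siControl.

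With each library's trend in GC content and length removed, 58 members passed after depletion, 29 rising and 29 falling, where 41 and 13 had done so before. Over all genes 22.6% passed with the trend removed, and the rising share of those that passed was 48.8%, where it had been 74.3%, so members moved with all genes. The 2 members that rose from the lowest bin were SLC6A14 and SLC33A1, at 37.1% and 39.6% GC. Their log2 differences became larger on removal, 0.77 and 0.66. SLC6A12 was at 0.59, SLC7A5 at 0.39, SLC16A3 and SLC22A31 at 0.29 and SLC66A1 at 0.28. These were smaller than before by over 1.5-fold except for SLC6A12, and all 20 of the largest rises and falls still passed. For SLC6A19, removal of the trend left a difference of 0.18. Vitamin and nucleoside transporters counted 2 rises and 7 falls, amino acid transporters 5 and 5, and SLC39 members 4 and 1.

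**Figure D4:**
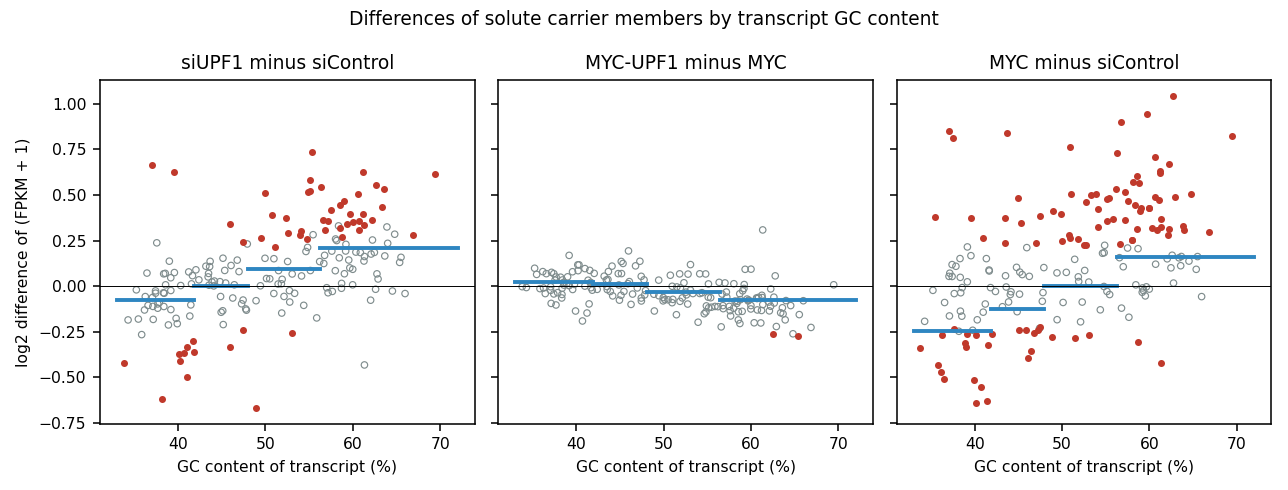
Difference on the log2(FPKM + 1) scale (y) against GC content of the transcript in percent (x) for the 186 members (points; filled red where the unadjusted limma p was under 0.05), in 3 comparisons; blue bars are medians of all genes tested in 4 equal bins of GC content, cut at the plot's edges. Members follow the slope of all genes, upward for siUPF1 minus siControl (rho 0.552) and MYC minus siControl (0.473). The slope is downward for MYC-UPF1 minus MYC (-0.53), where its sign depended on single libraries (0.249 without MYC replicate 2).

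Overexpression of MYC-UPF1 was set against the MYC vector to ask what an excess of UPF1 changes. Of 186 members, 2 (1.08%) passed an unadjusted limma p of 0.05, against 1.43% of 13251 genes tested. Both fell (1.08%, against 0.807% of all genes). None passed a limma adjusted p of 0.05 or of 0.1, which 0.00755% and 0.0226% of all genes did. The shares at the unadjusted threshold were below the 4.85% of unchanged genes that passed in simulated libraries. A low count here thus does not show that overexpression changed little. With crossed replicate numbers as a block, chosen with the data in view, 22 members passed (9.26% of all genes). SLC2A8 was at 39.1 and 43.7 FPKM in MYC and at 35.2 and 33.5 FPKM in MYC-UPF1, and it fell by 0.26 on the log2 scale (SE 0.09). SLC25A10, the mitochondrial dicarboxylate carrier, was at 22.7 and 26.1 FPKM in MYC and at 20.9 and 19.1 FPKM in MYC-UPF1, and it fell by 0.27 (SE 0.11). The 2 groups did not overlap for either gene, but the gap between them was smaller than the difference between the MYC replicates. Without MYC replicate 2, 0 members passed, and without MYC replicate 1, 13 did (5.85% of all genes). Neither gene passed without either MYC-UPF1 replicate or with the replicate number as a block, where SLC9A3 passed instead, as a rise.

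Members leaned downward after overexpression, by little. Their median log2 difference was -0.04 against -0.01 for all genes, and 123 of 186 were below 0. With the GC and length trend removed the median was -0.012, against -0.002 for all genes, and 112 members were below 0. Under quantile normalization 111 members were below 0. The share of all genes below 0 is not given here. The MYC-UPF1 libraries were below both MYC libraries in 39 members (21%, against 11.8% of all genes) and above both in 15 (8.06%, against 8.88%). The differences ran against GC content (Spearman's rho -0.53 across members, -0.432 across all genes), but the sign of this slope depended on single libraries. Across members rho was 0.249 without MYC replicate 2 and 0.172 without MYC-UPF1 replicate 2. It was -0.75 without MYC replicate 1 and -0.733 without MYC-UPF1 replicate 1. The widest differences were -0.27 and 0.31, the latter that of SLC9A3 with its low MYC replicate 2. For SLC33A1 and SLC6A14, which were among the largest rises after depletion, the vector groups overlapped, with SLC33A1 at 7.91 and 6.72 FPKM in MYC and 7.27 and 8.29 FPKM in MYC-UPF1 and SLC6A14 at 4.78 and 3.78 FPKM and 3.95 and 4.56 FPKM.

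The effects of depletion and overexpression were then compared in a fit over all 8 libraries, as the difference of the log2 differences. Of 186 members, 49 (26.3%) passed an unadjusted p of 0.05, against 15.2% of 13412 genes, and none passed an adjusted p of 0.05, where 0.0224% of all genes did. The difference was positive in 40 (21.5%, against 11.8%) and negative in 9 (4.84%, against 3.4%). It was largest for SLC6A12 (0.80 ± 0.14 SE), SLC7A5 (0.76 ± 0.14 SE) and SLC6A14 (0.67 ± 0.17 SE). It was most negative, among members that passed, for SLC38A4 (-0.67 ± 0.17 SE), SLC27A2 (-0.62 ± 0.16 SE) and SLC19A2 (-0.60 ± 0.15 SE). The lowest limma adjusted p of a member was 0.104, that of SLC7A5. For SLC6A19 the difference was 0.59 ± 0.14 (SE), again without a test. With the trend removed the difference was 0.44 for SLC7A5, 0.61 for SLC6A12, 0.80 for SLC6A14 and 0.34 for SLC6A19.

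The 2 control groups were compared to see how far members vary without a change of UPF1. The MYC and siControl cells differ in the transfected material, and any difference of run or day cannot be told apart from it. Here 97 of 186 members (52.2%) passed an unadjusted limma p of 0.05, against 40.9% of 13359 genes, and 68 (36.6%) passed an adjusted p of 0.05, against 29.1%. Members were higher in MYC in 69 cases (37.1%, against 15.4% of all genes) and lower in 28 (15.1%, against 25.6%). Their median log2 difference was 0.10, while that of all genes was -0.06. This comparison shares its control libraries with that of depletion.

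The largest difference was that of SLC16A3 (MCT4), on chromosome 17 from 80175810 to 80219005. It was at 11.7 and 12.2 FPKM in siControl and 24.7 and 26.8 FPKM in MYC, a log2 difference of 1.04 ± 0.10 (SE). SLC29A4, a transporter of monoamines and adenosine, was at 16.3 and 16.5 FPKM in siControl and 30.8 and 34.2 FPKM in MYC (0.95 ± 0.10 SE). SLC2A4, the insulin-regulated glucose transporter GLUT4, was at 0.945 and 0.935 FPKM and at 2.64 and 2.59 FPKM (0.90 ± 0.11 SE). Its siControl values lay below the membership limit of 1 FPKM, so the higher vector libraries helped it to be selected. The siUPF1 libraries of SLC2A4, at 1.09 and 1.28 FPKM, stayed near siControl, and those of MYC-UPF1, at 2.34 and 2.38 FPKM, near MYC.

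A gap between the siRNA groups and the vector groups was also plain for SLC1A3 and SLC6A6. SLC1A3, a glutamate and aspartate transporter, was at 8.95 to 11.1 FPKM in the 4 siRNA libraries and 15.6 to 19.03 FPKM in the 4 vector libraries. SLC6A6 was at 30.6 to 35.8 FPKM and 52.9 to 57.0 FPKM. SLC39A10, a zinc importer, was at 4.55 to 6.45 FPKM and 8.05 to 10.7 FPKM. SLC7A10 (0.71 ± 0.11 SE), which exchanges small neutral amino acids, SLC44A2 (0.73 ± 0.12 SE), SLC22A31 (0.83 ± 0.12 SE) and SLC6A14 (0.85 ± 0.13 SE) completed the 10 members most raised in MYC.

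The largest fall was that of SLC25A32, from 8.66 and 9.33 FPKM in siControl to 5.37 and 5.43 FPKM in MYC, by 0.64 on the log2 scale (SE 0.11). SLC25A16 was at 5.94 and 6.64 FPKM and at 3.001 and 4.56 FPKM (-0.63 ± 0.14 SE). SLC30A1 was at 13.7 and 15.4 FPKM and at 10.2 and 8.95 FPKM (-0.56 ± 0.11 SE). These belong to mitochondrial carriers and zinc exporters, as do 2 of the remaining 7 that fell most, SLC25A46 (-0.43 ± 0.12 SE) and SLC25A4 (-0.36 ± 0.12 SE). The others were SLC16A6 (-0.51 ± 0.11 SE), a transporter of ketone bodies, SLC41A2 (-0.51 ± 0.12 SE), a magnesium transporter, SLC35A3 (-0.47 ± 0.12 SE), the UDP-N-acetylglucosamine carrier of the Golgi, SLC9A3 (-0.42 ± 0.16 SE) and SLC2A14 (-0.39 ± 0.12 SE). SLC2A14 is a close copy of SLC2A3, so reads may be shared between them. SLC9A3 rested on MYC replicate 2, and without it the log2 difference was -0.06. SLC25A16 was at -0.39 without MYC replicate 1, and SLC25A4 did not pass without either siControl replicate. Once the GC and length trend was taken out, SLC25A46 was at -0.12 and no longer passed.

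**Figure D5:**
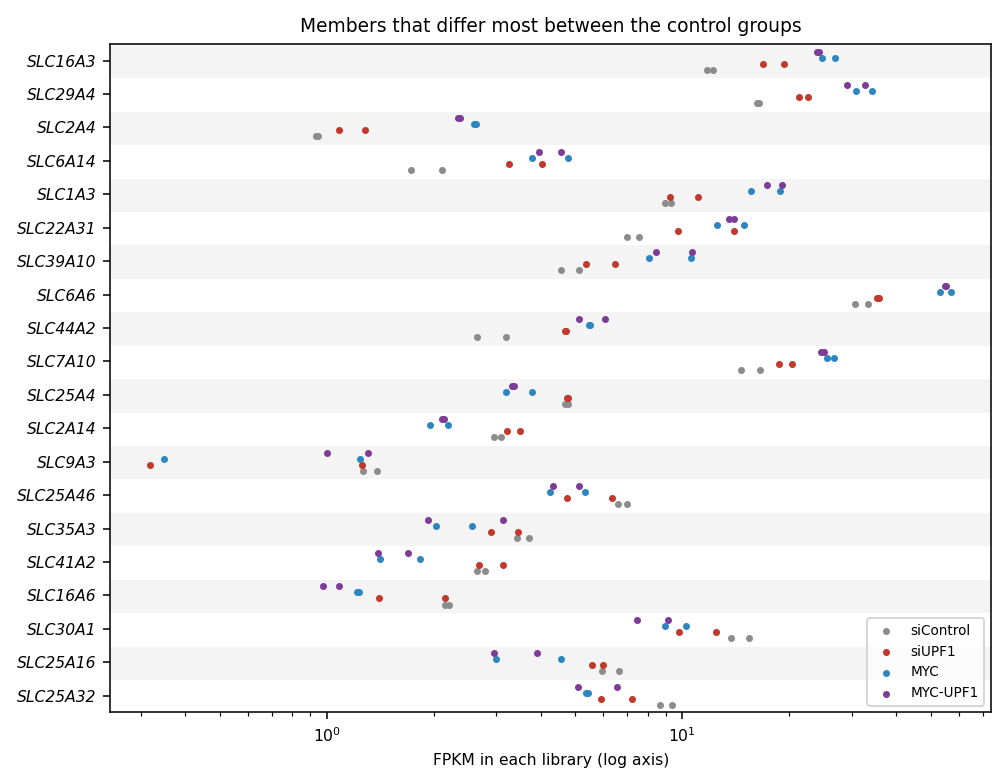
FPKM in each of the 8 libraries (x, log axis; 2 points per group, coloured by group) for the members with the 10 largest rises and 10 largest falls in MYC against siControl (y). Blue MYC and purple MYC-UPF1 points lie together; for SLC2A4, SLC1A3, SLC39A10 and SLC6A6 the grey siControl and red siUPF1 points lie together on the other side.

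By class, 16 of 29 amino acid and peptide transporters were higher in MYC and 1 was lower. Among them were SLC1A5, at 67.1 and 74.7 FPKM in siControl and 88.4 and 89.7 FPKM in MYC, and SLC7A5. All 6 SLC7 members were higher, a family chosen after the values were seen, and 5 still passed with the GC and length trend removed. Inorganic ion transporters counted 10 higher and 1 lower among 23, vitamin and nucleoside transporters 8 and 1 among 12, and neurotransmitter, creatine and osmolyte transporters 5 and 0 among 7. These directions held under quantile normalization, median centring and removal of the GC and length trend. The neurotransmitter, creatine and osmolyte transporters that were higher include SLC6A16, at 0.659 and 0.776 FPKM in siControl and 1.06 and 1.11 FPKM in MYC. Its siControl values lay below the membership limit of 1 FPKM, so the higher libraries helped it to be selected.

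The zinc transporters were also read by family. The SLC39 family, which brings zinc into the cytosol, counted 8 higher and 0 lower among 11, and the SLC30 family, which takes it out, 0 higher and 4 lower among 6. Both families were chosen after the values were seen. The SLC39 count was 8 and 0 under quantile normalization and median centring and 8 and 1 with the GC and length trend removed. The SLC30 count depended on the scaling, at 0 and 2 under both normalizations and 1 and 1 with the trend removed. The mitochondrial SLC25 family counted 2 higher and 11 lower among 38, but 5 and 6 under quantile normalization and 6 and 5 under median centring, so its direction is not settled.

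With the GC and length trend removed, 105 members passed in this comparison, 84 higher (80%) and 21 lower in MYC. Over all genes 39.1% passed with the trend removed, and 49.5% of these were higher in MYC. Hepatocyte markers moved in the main fit of the same comparison, with 6 of 9 higher in MYC and 1 lower, against 15.4% and 25.6% of all genes. Among those higher was TF, at 96.4 and 106.3 FPKM in siControl and 153.4 and 147.3 FPKM in MYC. The part of these markers in the difference of the transporters was not tested.

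Genes that work with solute carriers were read from lists of partners, pumps, ABC transporters and regulators. After depletion, 1 of 13 tested transport partners rose and 1 fell, the latter the kinase SGK1, at 40.97 and 44.7 FPKM in siControl and 36.999 and 26.5 FPKM in siUPF1. Of 10 tested ABC transporters, which use ATP, 1 rose and 2 fell. Of 3 tested subunits of the sodium potassium pump, which maintains the gradient used by sodium-coupled carriers, none passed in either direction. Of 13 tested regulators, 3 rose and 2 fell. Over all genes tested 16% rose and 5.51% fell, and these short lists were not tested as sets. ATF4, which induces amino acid transporters under stress, rose from 203.1 and 212.8 FPKM to 248.8 and 273.1 FPKM (0.32 ± 0.10 SE). After overexpression none of these genes passed, where 1.43% of all genes did.

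In MYC against siControl the lists were mixed. The ABC transporters counted 3 higher and 4 lower among 10, the partners 2 and 3 among 13, the regulators 2 and 3 among 13, and the pump subunits 1 and 1 among 3. Over all genes tested 15.4% were higher and 25.6% lower at the same unadjusted threshold. BSG, the chaperone of the lactate transporters SLC16A1 and SLC16A3, was at 441.1 and 502.6 FPKM in siControl and 612.7 and 651.3 FPKM in MYC (0.42 ± 0.08 SE). PDZK1, a scaffold for organic ion transporters, was at 35.5 and 37.5 FPKM and at 22.8 and 22.1 FPKM (-0.67 ± 0.10 SE). The canalicular exporter ABCC2 was at 66.6 and 71.9 FPKM and at 43.9 and 45.8 FPKM (-0.61 ± 0.09 SE). In these 3 genes, picked after their values were seen, the siControl and MYC libraries did not overlap. Over all genes tested, MYC lay above siControl without overlap in 25.6% and below it in 41.3%.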

How the data were processed

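Poly(A) RNA of Huh7 cells was sequenced from both ends after stranded library preparation. Per the labels and the methods, the authors trimmed reads (Trimmomatic 0.38, checked with FastQC 0.11.7), aligned them with HISAT2 2.1.0 to hg19 (mm10 is also listed, with no role given), ran StringTie 1.3.4d with NCBI annotation, and deposited FPKM per gene and library. The same values stood in both kinds of table (0 differences), and no gene was at 0. Low values gave no steps of whole reads (at most 0.405% of 1975 low genes shared a ratio between libraries), so depth and counting error are unknown and no count test was run. How reads shared by paralogs were assigned cannot be checked.

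Each comparison was fitted with limma 3.58.1 in R 4.3.3 (lmFit, then eBayes with its trend option) on log2(FPKM + 1) over all genes with a mean of at least 0.5 FPKM, and members were read from it. All 186 passed that filter in every comparison. The study's own threshold, an unadjusted p of 0.05, is given beside Benjamini-Hochberg adjusted p over all genes. The smallest p of an exact permutation test between groups of 2 is 0.333. The method was tested on simulated libraries: at a log2 change of 0.4 it passed 92% of changed genes among 13399 for depletion, 93% among 13390 for overexpression, 88% among 13405 for MYC against siControl and 53% among 13390 for the difference of the effects, and at a log2 change of 1 it passed 100% in all 4, at an unadjusted p of 0.05. At the adjusted p, 48%, 47%, 46% and 6% passed at 0.4. The simulated spread was independent between genes, while real replicates differed along GC content, so these shares need not hold for these data.

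Members, classes, lists and SLC6A19 were chosen with earlier results of these data known. Named were the 10 largest rises and falls per comparison among members that passed with groups that did not overlap, the 3 largest differences of the effects each way, the 10 highest levels, the highest of each class, and the 3 on each side of the limit; others were named after their values were seen. Some genes of the lists are not reported here by name. Positions, GC content and length come from GENCODE release 44 on GRCh37, and promoter windows from RefSeq (GRCh38.p14). Alternatives were a pseudocount of 0.1, no filter or 5 FPKM, quantile normalization, median centring, removal of each library's loess trend (span 0.5) with GC content and length, eBayes without trend, a fold change of at least 1.2, all 8 libraries, the replicate number as a block, and each library left out. A block with crossed numbers was a later addition, made with the data in view. Python 3.11.15, pandas 2.3.3 and matplotlib 3.10.9 were used.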

Additional observations from a re-analysis of the deposited data

How the results depend on the processing

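The count of members that passed after depletion was 35 when membership required a mean of 5 FPKM in place of 1, and ranged from 26 (without siControl replicate 1) to 92 (without siUPF1 replicate 1) as single libraries were left out. Rises and falls were 41 and 13, but 29 and 29 with the GC and length trend removed. The median difference of members after depletion was 0.0050 under quantile normalization and 0.0012 with that trend removed. After overexpression 6 members passed with the trend removed, 1 in the fit of all 8 libraries and 1 with a fold change of at least 1.2, and as libraries were left out the count ranged from 0 (MYC replicate 2) to 13 (MYC replicate 1). In MYC against siControl the median was 0.16 at 5 FPKM, 0.15 under quantile normalization and 0.19 under median centring. Rises and falls were 69 and 28, 82 and 12 under median centring, 79 and 14 under quantile normalization, and the count ranged from 51 (without siControl replicate 1) to 110 (without MYC replicate 1). For the difference of the effects the median was 0.0079 under quantile normalization and 0.022 with the trend removed, the rises and falls 40 and 9, or 25 and 19 with the trend removed, and the count ranged from 31 (without siControl replicate 1) to 58 (without siUPF1 replicate 1). SLC6A19 in MYC against siControl reversed to -0.032 with the trend removed.

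Replicate numbers did not pair the libraries. Deviations of same-numbered libraries correlated at -0.129 for depletion, -0.569 for overexpression and 0.01 for MYC against siControl. With the replicate number as a block, 55, 1, 99 and 38 members passed for depletion, overexpression, MYC against siControl and the difference of the effects, and the 1 after overexpression was a rise, where the main 2 were falls. With the numbers crossed, an alternative chosen with the data in view, 55 passed after depletion and 22 after overexpression, 2 rising and 20 falling, where 9.26% of all genes passed. At an adjusted p of 0.05, members passed after depletion in number 12 with all 8 libraries, 11 at 5 FPKM, 5 with the trend removed and 4 with the numbers crossed, and 2 to 71 without single libraries. After overexpression none did under any of these.

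Of the values of named genes under the alternatives, 276 of 287 for depletion, 254 of 263 for MYC against siControl, 31 of 41 for overexpression and 108 of 108 for the difference of the effects kept their direction and their side of the unadjusted threshold. Apart from SLC6A19, these genes were chosen because they had passed in the main fit. The alternatives reuse the same libraries, so the selection favoured such agreement in advance. Where a value changed with a scaling, the cause was not tested. Unknown depth limits all low members, SLC6A19 and SLC9A3 among them, and 2 libraries per group limit every call.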
